A study of Mus musculus with 8 samples.

Results

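The Ms4a cluster genes are 8 genes of the membrane-spanning 4-domains subfamily A on mouse chromosome 19, namely Ms4a14, Ms4a7, Ms4a4a, Ms4a4c, Ms4a4b, Ms4a6c, Ms4a6b and Ms4a6d in their order along the chromosome. They were taken from the count table by gene symbol, and all 8 were among its 55385 genes. RNA sequencing had been performed on wild-type primary microglia cultured from the hippocampi and neocortices of newborn mice, with the brains of several pups pooled in each culture. The control group had 4 libraries, which the labels call untreated and the study's methods describe as given PBS. The IgG group had 4 libraries from cells that received IgG at 10 µg/ml on day 15 in culture (DIV15) and were kept with it for 24 h. Libraries that carry the same number in both groups also carry the same date in the labels, so that the 8 libraries form 4 pairs, numbered 1 to 4 below. Because these are cultures of dissociated newborn brain, they lack the surroundings that microglia have in tissue.

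MS4A proteins cross the membrane several times, and many of them sit beside immune receptors and alter how those receptors signal. The best known relatives are CD20 on B cells (Ms4a1) and the beta chain of the high-affinity IgE receptor on mast cells (Ms4a2). The genes studied here are known mostly from macrophages, monocytes and microglia, and in humans variants in the MS4A locus are associated with Alzheimer's disease and with the level of soluble TREM2.

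The libraries held 21287816 to 23703216 counts each, and 3 counts, the upper limit when no count is seen (counting error only), amounted to 0.124 to 0.147 CPM, the unit of level used here, which is the count scaled to a common library size with edgeR's TMM method. Of the microglial markers, Csf1r was at 1091 to 1286 CPM in the control libraries and 1171 to 1744 CPM in the IgG libraries, and Cx3cr1 was at 391 to 517 CPM and 466 to 693 CPM, whereas P2ry12, P2ry13 and Tmem119 lay between 4.69 and 16.0 CPM and Siglech had at most 9 counts in a library. With IgG 2 of the 14 tested markers of this list rose past adjustment, against 0.393% of all tested genes. These were Aif1 (log2 fold change 0.69, edgeR adjusted p = 0.0331) and Fcrls (0.83, adjusted p = 0.0329). Sall1 (-0.05, adjusted p = 0.867) and Trem2 (-0.14) were the only tested markers with a negative log2 fold change. Among the others P2ry12 was at 0.54, Tmem119 at 0.53 and P2ry13 at 0.43, none of them past adjustment. Marker lists of T cells, B cells and mast cells summed to at most 3.05, 0.555 and 5.64 CPM in any library, and 4 of 7, 1 of 5 and 3 of 6 of their genes had no count anywhere. Other brain cells left more RNA: markers of the oligodendrocyte lineage summed to 1132 to 1726 CPM in the controls and 972 to 1622 CPM with IgG, with up to 920 CPM for Mbp, a myelin protein gene, and astrocyte markers to 128 to 142 CPM and 116 to 137 CPM. The sums were lower with IgG in all 4 pairs, by log2 differences of -0.22, -0.09, -0.25 and -0.04 for the oligodendrocyte lineage, -0.14, -0.09, -0.11 and -0.05 for astrocytes and -0.61, -0.12, -0.19 and -0.16 for neurons, and the part of these cells in the results below was not tested. The share of counts from mitochondrial genes was 1.97% to 2.41% in 6 libraries, 4.85% in IgG library 1 and 5.59% in IgG library 3. In cultured cell populations such as these, more RNA per cell and a larger share of cells that express a gene cannot be told apart.

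The level of most Ms4a cluster genes was higher with IgG. Ms4a4c, Ms4a6b, Ms4a6c and Ms4a7 rose past adjustment, that is, with adjusted p under 0.05 when edgeR's quasi-likelihood model held the pair as a block, so that each IgG library was compared with its own control. These were 4 of the 8 genes, whereas 0.393% of the 17537 genes tested in the whole table rose by the same rule. By the study's criterion, an unadjusted p-value under 0.01 with a log2 fold change above 0.5, Ms4a6d was added and the count was 5 of 8, against 1.48% of all tested genes. Ms4a4a was also higher in each of the 4 pairs, and 6 of the 8 genes were so, against 10.4% of all tested genes. The median log2 fold change was 0.64 over the 8 genes and -0.01 over all tested genes. The genes lie side by side, share sequence and come from the same libraries, and they are therefore not 8 independent observations.

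These calls depended on the pairing. When it was left out of the test, 0 of the 8 genes and 0 of all 17537 genes passed adjustment with edgeR. In that fit 5 of the 8 genes were higher with an unadjusted p-value under 0.05, against 4.83% of all tested genes, and 2 (Ms4a6c and Ms4a7) met the criterion, against 0.582%. Leaving out pair 1, pair 2 or pair 3 also left 0 genes past adjustment, although in each of those edgeR fits 6 of the 8 genes were higher with an unadjusted p-value under 0.05, against 3.04%, 5.47% and 2.75% of all tested genes, and the 5 genes named above still met the criterion, against 1.08%, 1.4% and 1.1%. Without pair 4, in contrast, Ms4a6d was added to the 4 genes and 5 passed, against 0.974% of all tested genes. Over all tested genes 69 passed with all 4 pairs, and 14, 0, 16 and 182 passed without pair 1, 2, 3 or 4. With only pairs 2 and 4, whose IgG libraries had the low mitochondrial share, Ms4a4c, Ms4a6b, Ms4a6c and Ms4a7 passed. Ms4a6d no longer met the criterion there. This fit was chosen after the data were seen, and 0.867% of all tested genes rose past adjustment in it. It held only 2 libraries of each group and thus little information on their spread. More genes passed in it, 190, than the 69 with all 4 pairs, so these calls carry little weight. Under DESeq2 with the block 5 genes passed, against 1.21% of all tested genes, and under limma-voom with the block 4, against 0.496%.

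**Figure D1:**
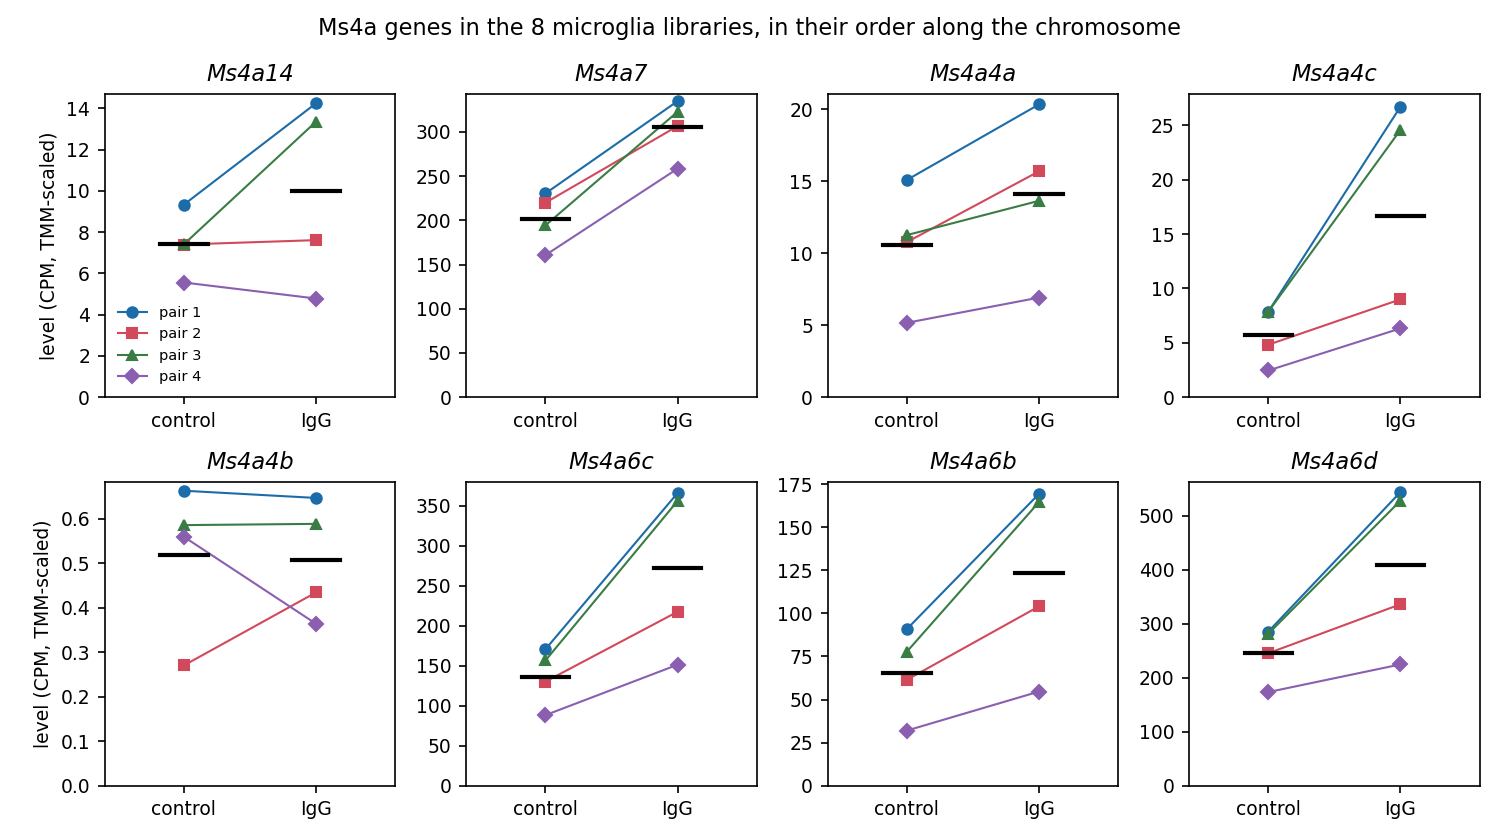
Level of each Ms4a gene in CPM (TMM-scaled, linear axis from 0, a separate scale for each gene) in the control and IgG libraries. Lines join the 2 libraries of a pair and black bars are the group means. The lines of 6 genes run upward in all 4 pairs, pair 4 lies lowest for most genes, and only Ms4a7 has every IgG library above every control library.

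The Ms4a6 genes, Ms4a6b, Ms4a6c and Ms4a6d, included the most abundant of the 8 per length of exon. Their proteins are found in macrophages and monocytes. Ms4a6d (chr19:11586604-11604849, minus strand, GRCm38, 1735 bases of exon) had 285, 245, 281 and 173 CPM in control libraries 1 to 4 and 544, 336, 528 and 225 CPM in IgG libraries 1 to 4. Each IgG library was above its paired control, but IgG library 4 lay below 3 of the 4 controls, so that the groups overlapped. The log2 fold change was 0.67 (SE 0.122), with differences of 0.93, 0.45, 0.91 and 0.37 in pairs 1 to 4, and the adjusted p-value of edgeR was 0.0766. The larger differences were in pairs 1 and 3, whose IgG libraries had the high mitochondrial share, and over pairs 2 and 4 alone the log2 fold change was 0.41 (edgeR adjusted p = 0.200). Its call depended on the processing. Once trends of the changes on gene length and GC content had been removed, it passed with edgeR adjusted p = 0.0395. The log2 fold change was then 0.64.

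Ms4a6c (chr19:11469366-11482192, plus strand, 2050 bases of exon) had 170, 130, 156 and 88.1 CPM in the controls and 366, 217, 356 and 151 CPM with IgG. Here 3 of the 4 IgG libraries were above the highest control. The rise was 0.95 on the log2 scale (SE 0.107, edgeR adjusted p = 0.0145), or 1.93-fold. Its within-pair differences were 1.10, 0.74, 1.18 and 0.78, so that pairs 1 and 3, with the high mitochondrial share in the IgG library, gave the larger values. The part of that share in the result was not tested, and the log2 fold change over pairs 2 and 4 alone was 0.76.

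Ms4a6b (chr19:11516512-11531256, plus strand, 4485 bases of exon) had 90.9, 61.5, 77.8 and 32.0 CPM in the controls and 169, 104, 165 and 54.6 CPM with IgG. Control 4 was again the lowest of its group and IgG 4 the lowest of the treated libraries. The log2 fold change was 0.88 (SE 0.0941, edgeR adjusted p = 0.0145), and the pairs differed by 0.90, 0.76, 1.08 and 0.77. The difference between cultures was large beside the effect of treatment: the highest control was 2.84 times the lowest, against a 1.84-fold rise with IgG. Both libraries of a pair shared this spread, and the standard error of the log2 fold change was 0.377 without the block and 0.0941 with it.

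The Ms4a6 genes are close copies of one another. Over their longest annotated coding sequences, Ms4a6b and Ms4a6c were identical at 86.4% of aligned bases, Ms4a6b and Ms4a6d at 81.8%, and Ms4a6c and Ms4a6d at 79.6%. The windows around the transcription start of Ms4a6b and Ms4a6c, from 250 bases before to 50 bases after it (RefSeq, GRCm38.p6), had 189 of 300 bases identical in alignment. They are shown because these neighbours rose together. The capitals mark the longest stretch that both windows share exactly, 48 bases, which lies at -118 to -71 from the start in Ms4a6b and at -49 to -2 in Ms4a6c.
Ms4a6b, chr19:11518309-11518608, plus strand: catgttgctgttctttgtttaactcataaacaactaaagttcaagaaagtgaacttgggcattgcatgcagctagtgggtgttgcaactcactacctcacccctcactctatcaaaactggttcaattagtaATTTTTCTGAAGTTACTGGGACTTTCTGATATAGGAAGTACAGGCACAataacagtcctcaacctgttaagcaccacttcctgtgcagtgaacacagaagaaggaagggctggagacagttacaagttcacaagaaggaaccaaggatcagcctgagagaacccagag
Ms4a6c, chr19:11469118-11469417, plus strand: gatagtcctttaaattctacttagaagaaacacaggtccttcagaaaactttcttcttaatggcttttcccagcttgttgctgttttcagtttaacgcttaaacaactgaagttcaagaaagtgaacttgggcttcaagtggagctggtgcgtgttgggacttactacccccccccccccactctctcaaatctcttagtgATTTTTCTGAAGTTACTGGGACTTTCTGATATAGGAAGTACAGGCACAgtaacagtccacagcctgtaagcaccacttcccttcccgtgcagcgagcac
The longest coding stretch without a difference between Ms4a6b and Ms4a6d was 81 bases (coding bases 100 to 180 in both genes), and it shows how a short read can match both. It is spread over 2 coding exons, within chr19:11520438-11521703 on the plus strand for Ms4a6b and chr19:11601932-11603193 on the minus strand for Ms4a6d.
Ms4a6b and Ms4a6d, shared coding stretch: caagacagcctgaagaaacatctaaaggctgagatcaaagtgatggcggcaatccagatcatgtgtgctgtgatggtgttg
Of all 50-base words in their annotated transcripts, 3.57% of those of Ms4a6b and 2.54% of those of Ms4a6d occur in a transcript of another gene. For Ms4a6c the share was 51.4%, mostly through BE692007, an antisense transcript on the opposite strand that covers 1088 of the 2050 exon bases of Ms4a6c. Whether counting used strand is not given in the sources used here, and reads from Ms4a6c and BE692007 may therefore have been counted for either. BE692007 itself had 87.7 ± 23.8 CPM (SD, n = 4) in the controls and 181 ± 75.1 CPM (SD, n = 4) with IgG, and its log2 fold change of 0.99 (edgeR adjusted p = 0.0210) was close to that of Ms4a6c. With the counts of both summed as 1 gene, an alternative chosen after the data were seen, the log2 fold change was 0.97 and the adjusted p-value of edgeR was 0.0165.

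The Ms4a4 genes, Ms4a4a, Ms4a4b and Ms4a4c, differed from one another most. MS4A4A is a macrophage protein known to associate with the fungal receptor Dectin-1, whereas mouse Ms4a4b is best known from T cells, where it associates with the co-stimulatory receptor GITR. Ms4a4c (chr19:11404770-11427246, plus strand, 1751 bases of exon) had 7.88, 4.83, 7.87 and 2.45 CPM in the controls and 26.7, 9.00, 24.6 and 6.33 CPM with IgG. Each IgG library exceeded its own control, and IgG 4 was lower than controls 1 and 3. The log2 fold change of 1.44 (SE 0.165, edgeR adjusted p = 0.0145) was the largest of the cluster, corresponded to 2.71-fold and ranked 18 among the 17537 tested genes. The pairs differed by 1.75, 0.89, 1.63 and 1.33, and over pairs 2 and 4 alone the log2 fold change was 1.11.

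Ms4a4a (chr19:11375523-11392790, plus strand, 836 bases of exon) had 15.1, 10.8, 11.3 and 5.17 CPM in the controls and 20.3, 15.7, 13.6 and 6.92 CPM with IgG. All 4 differences were positive and similar (0.43, 0.54, 0.27 and 0.41). The log2 fold change of 0.42 (SE 0.112) had an unadjusted p-value of 0.00562 and an adjusted p-value of 0.284 in edgeR. Ms4a4a thus did not pass adjustment, and it missed the criterion only because the log2 fold change was not above 0.5. Ms4a4b (chr19:11443553-11467055, plus strand, 8780 bases of exon) was near the limit of detection, with 16, 6, 14 and 13 counts in the controls and 14, 10, 12 and 8 counts with IgG. Its log2 fold change was -0.02 (SE 0.345, edgeR adjusted p = 0.986), and 2 of 4 pairs were higher with IgG. At this depth neither a rise nor a fall of moderate size could be detected for Ms4a4b.

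Ms4a4b and Ms4a4c thus had different levels although they are the most alike of the 8 genes. Their coding sequences were 91.7% identical, and in the windows around their starts 228 of 300 bases were identical in alignment. This was the highest number of any pair among the 7 genes with a window, which Ms4a6d lacked. These windows are shown because the pair combines the gene that rose most with the gene that is barely detected. The capitals mark the 2 longest stretches shared exactly, each of 20 bases, at -41 to -22 and 3 to 22 in Ms4a4b and at -38 to -19 and 7 to 26 in Ms4a4c, counted from the start.
Ms4a4b, chr19:11443308-11443607, plus strand: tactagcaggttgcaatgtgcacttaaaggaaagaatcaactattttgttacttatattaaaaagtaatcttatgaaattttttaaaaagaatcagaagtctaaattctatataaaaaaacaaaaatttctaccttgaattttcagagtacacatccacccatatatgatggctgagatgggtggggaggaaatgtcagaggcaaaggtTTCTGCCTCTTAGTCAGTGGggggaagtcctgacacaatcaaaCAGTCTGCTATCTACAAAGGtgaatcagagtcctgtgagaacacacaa
Ms4a4c, chr19:11407411-11407710, plus strand: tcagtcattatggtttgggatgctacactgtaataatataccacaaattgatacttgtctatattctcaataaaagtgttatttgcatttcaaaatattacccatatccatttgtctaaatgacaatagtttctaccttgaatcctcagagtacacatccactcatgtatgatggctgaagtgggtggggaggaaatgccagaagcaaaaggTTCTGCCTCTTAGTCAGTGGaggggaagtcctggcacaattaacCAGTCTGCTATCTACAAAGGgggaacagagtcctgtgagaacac
The motif GAGGAA, the core that the myeloid factor PU.1 recognises, was found on the plus strand of both windows, at -64 to -59 in Ms4a4b and at -61 to -56 in Ms4a4c. It is common, occurring in 28.3% of 32851 mouse windows of this length on either strand. The coding sequences of Ms4a4b and Ms4a4c also share a stretch of 127 bases, coding bases 321 to 447 in both, over 2 coding exons within chr19:11459161-11461265 for Ms4a4b and chr19:11419001-11421266 for Ms4a4c. It is shown because a read that lies wholly within it cannot be placed in one gene or the other.
Ms4a4b and Ms4a4c, shared coding stretch: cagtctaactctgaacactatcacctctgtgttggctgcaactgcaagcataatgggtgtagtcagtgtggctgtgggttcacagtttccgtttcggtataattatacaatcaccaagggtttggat
In Ms4a4c 8.19% of the 50-base words occur in a transcript of another gene, in Ms4a4b 2.40%, and in Ms4a4a and Ms4a14 none. How the authors counted reads with several alignments is not given in the sources used here, so the few counts of Ms4a4b and a part of those of Ms4a4c are uncertain as single genes.

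Ms4a7 (chr19:11321039-11336146, minus strand, 4453 bases of exon) is a macrophage gene that is often used to mark border-associated macrophages of the brain. It had 230, 220, 194 and 161 CPM in the controls and 335, 307, 323 and 258 CPM with IgG. It was the only one of the 8 genes whose groups did not overlap, a pattern that 2.6% of all tested genes showed in this direction. The log2 fold change was 0.61 (SE 0.0897, edgeR adjusted p = 0.0381), with differences of 0.54, 0.48, 0.73 and 0.69 in the pairs. Its cultures also varied least, with the highest control 1.43 times the lowest, and the unadjusted p-value of edgeR without the block was 0.000903 (adjusted p = 0.511). Scaled by total counts alone or by the upper quartile, Ms4a7 no longer passed adjustment, with log2 fold changes of 0.51 and 0.57. The 12 markers of border-associated or monocyte-derived macrophages summed to 971 to 1110 CPM in the controls and 1061 to 1434 CPM with IgG. The log2 differences of these sums were 0.34, 0.19, 0.40 and 0.13 in the pairs. Of the 9 markers that were tested 0 passed adjustment in edgeR, whereas 0.393% of all tested genes rose past it. Of the listed genes Cd163 and Lyve1 had at most 3 and 5 counts in a library. Mrc1, in contrast, was at 42.7 to 101 CPM, Clec12a at 179 to 291 CPM and Pf4 at 4.44 to 7.83 CPM. Stab1, at 709 to 1047 CPM, made up most of the sum, with a log2 fold change of 0.25 (edgeR adjusted p = 0.463). Of the 9 tested markers 5 had a positive log2 fold change, among them Mrc1 (0.18) and Clec12a (0.37), and 4 a negative one, Ccr2 (-0.76), F13a1 (-0.31), Clec10a (-0.19) and Folr2 (-0.05). Cbr2, which was at most 2.08 CPM, had a log2 fold change of 1.23 (adjusted p = 0.220). It was the 1 marker of the 9 tested that met the criterion, against 1.48% of all tested genes in this direction. The part of such cells in the level of Ms4a7 was not tested. RefSeq gives Ms4a7 a pair of start windows, and the upstream one (GRCm38.p6) is shown with the PU.1 core GAGGAA in capitals at 44 to 49 after the start.
Ms4a7, chr19:11336097-11336396, minus strand: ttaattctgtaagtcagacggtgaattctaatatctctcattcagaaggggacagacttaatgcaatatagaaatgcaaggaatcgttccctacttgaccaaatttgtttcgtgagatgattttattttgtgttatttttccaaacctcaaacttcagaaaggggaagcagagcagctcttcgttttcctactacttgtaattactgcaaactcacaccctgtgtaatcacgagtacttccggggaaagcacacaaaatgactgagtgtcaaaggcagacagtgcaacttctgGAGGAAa

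Ms4a14 (chr19:11301249-11314454, minus strand, 4065 bases of exon) has by far the longest coding sequence of the 8, with 3696 bases against 651 to 801 in the others. It had 9.33, 7.40, 7.41 and 5.56 CPM in the controls and 14.2, 7.61, 13.4 and 4.78 CPM with IgG. The differences were 0.61 and 0.84 in pairs 1 and 3 but 0.04 and -0.21 in pairs 2 and 4, so that the larger differences were in the pairs whose IgG libraries had the high mitochondrial share, and the part of that share was not tested. The log2 fold change was 0.34 (SE 0.189, edgeR adjusted p = 0.559), and over pairs 2 and 4 alone it was -0.08.

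**Figure D2:**
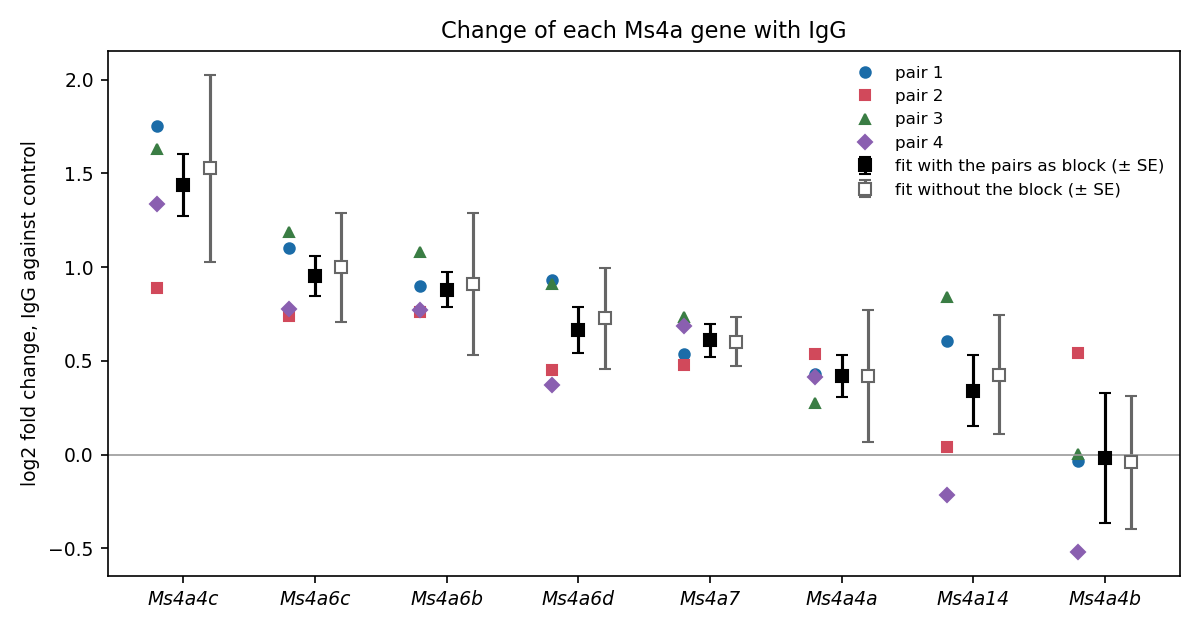
Log2 fold change of each Ms4a gene (IgG against control). Coloured points are the 4 within-pair differences, filled squares the edgeR estimate with the pairs as a block and open squares the estimate without it, each with its SE. The estimates run from 1.44 (Ms4a4c) to -0.02 (Ms4a4b) with the block, while the error bars without the block are wider for the genes that vary most between cultures.

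The windows around the starts of 7 of the 8 genes (all but Ms4a6d), 8 windows in all, were also searched on both strands. The search was for sites known from interferon signalling and from macrophages. The core of the interferon-stimulated response element, searched as a fixed string of 10 letters, had no exact match in these windows. TTCNNNGAA, the gamma-activated sequence bound by STAT factors, had none either. The core and TTCNNNGAA occur in 3.44% and 8.30% of all windows of this length. Near matches were not searched for. The printed windows of Ms4a6b and Ms4a6c both hold a stretch that differs from the interferon core at its last base only. How often such near matches occur in other windows was not tested. GAGGAA matched in Ms4a4b, Ms4a4c, Ms4a7 and Ms4a14. TGANTCA, bound by AP-1 factors, matched in Ms4a4b, Ms4a7 and Ms4a14 and is found in 7.81% of all windows. A match is only an occurrence of the letters, and the search covers 300 bases for each start.

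Levels were compared between the genes per kilobase of exon. The mean control level was 142 ± 29.9 CPM per kb (SD, n = 4) for Ms4a6d, 66.4 ± 17.7 for Ms4a6c, 45.2 ± 6.98 for Ms4a7, 14.6 ± 5.66 for Ms4a6b, 12.7 ± 4.89 for Ms4a4a, 3.29 ± 1.50 for Ms4a4c, 1.83 ± 0.379 for Ms4a14 and 0.0592 ± 0.0196 for Ms4a4b. With IgG the order was the same, from 235 ± 89.1 CPM per kb for Ms4a6d to 0.0580 ± 0.0150 for Ms4a4b. Within each of the 8 libraries every gene was above the next one in this order. Between libraries, however, several neighbours overlapped. Among the controls Ms4a6c and Ms4a7, Ms4a6b and Ms4a4a, and Ms4a4c and Ms4a14 overlapped in their CPM per kb, whereas the lowest Ms4a6d level, 99.9, was above the highest Ms4a6c level, 83.1. With IgG these overlapped as well, with 129 CPM per kb for the lowest Ms4a6d and 178 CPM per kb for the highest Ms4a6c level. Ms4a4c, with the largest fold change of the 8, went from 3.29 to 9.51 CPM per kb, and its highest level with IgG, 15.3, lay above the lowest Ms4a4a level with IgG, 8.28. The exon lengths are those of all annotated exons of a gene together, so that genes with long rarely used exons appear lower.

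**Figure D3:**
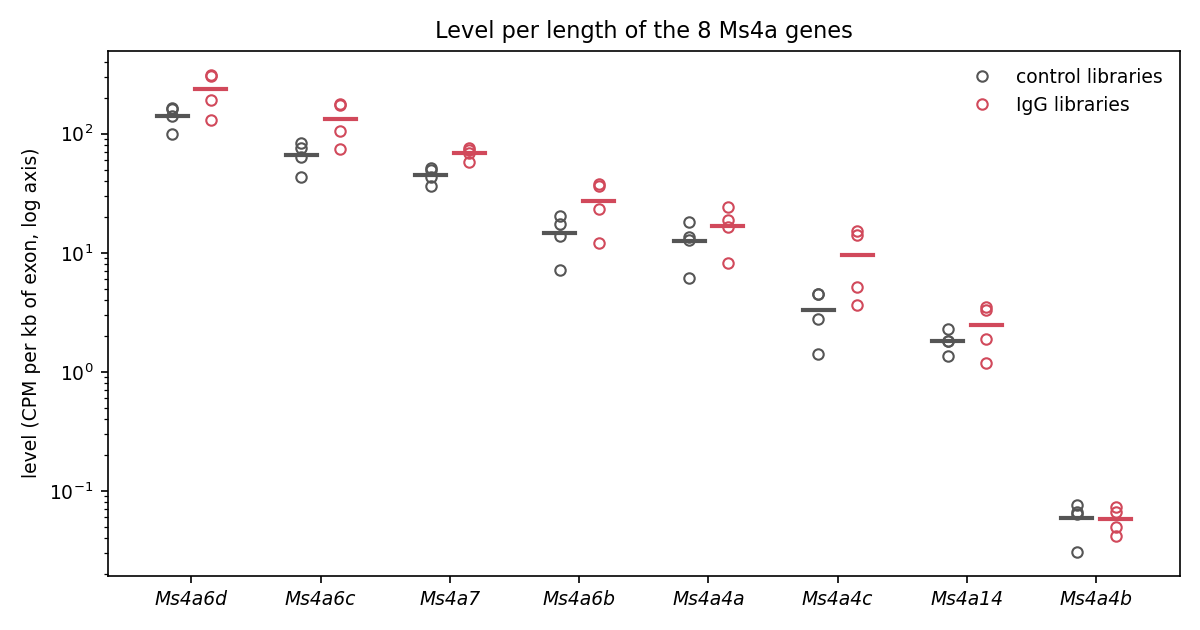
Level of the 8 Ms4a genes per kilobase of annotated exon (CPM per kb, log axis) in the 4 control and 4 IgG libraries, with bars at the group means. The genes span from 142 CPM per kb (Ms4a6d) to 0.0592 CPM per kb (Ms4a4b) in the controls and keep their order with IgG.

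The remaining 11 Ms4a genes of the annotation were hardly detected. No library held more than 5 counts of any of them, 3 had no count in any library (Ms4a2, Ms4a3 and Ms4a13), and none entered the test. Ms4a1, the gene of CD20, had 10 counts in all and Ms4a4d 11. The Ms4a genes that entered the test were thus the 8 studied here. Their interval from Ms4a14 to Ms4a6d, chr19:11301249-11604849, spans 303601 bases and holds 12 tested genes.

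The 4 tested genes in this interval that are not among the 8 are BE692007, the pseudogenes Gm5692 and Gm10212, and Gm8369. Counting these 4 and the 10 nearest tested genes on either side, 24 neighbouring genes were tested, and their median log2 fold change was 0.10. Of these, 2 rose past adjustment, BE692007 and AW112010, a long non-coding RNA gene 245441 bases away, and 4 met the criterion, against 0.393% and 1.48% of all tested genes. AW112010 had 10.6, 13.3, 8.42 and 8.91 CPM in the controls and 20.7, 19.5, 15.8 and 15.8 CPM with IgG (log2 fold change 0.81, edgeR adjusted p = 0.0362). Its groups did not overlap either, a pattern that 2.6% of all tested genes showed in this direction. The nearest tested gene on the Ms4a14 side was the pseudogene Gm6501 (178824 bases away, log2 fold change -0.23, edgeR adjusted p = 0.816) and on the Ms4a6d side Mrpl16, a mitochondrial ribosomal protein gene (165542 bases away, log2 fold change -0.11, edgeR adjusted p = 0.717). Without the block 0 of the 24 neighbours passed adjustment in edgeR, with an unadjusted p-value under 0.05 for 3 of them, against 4.83% of all tested genes on the higher side.

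**Figure D4:**
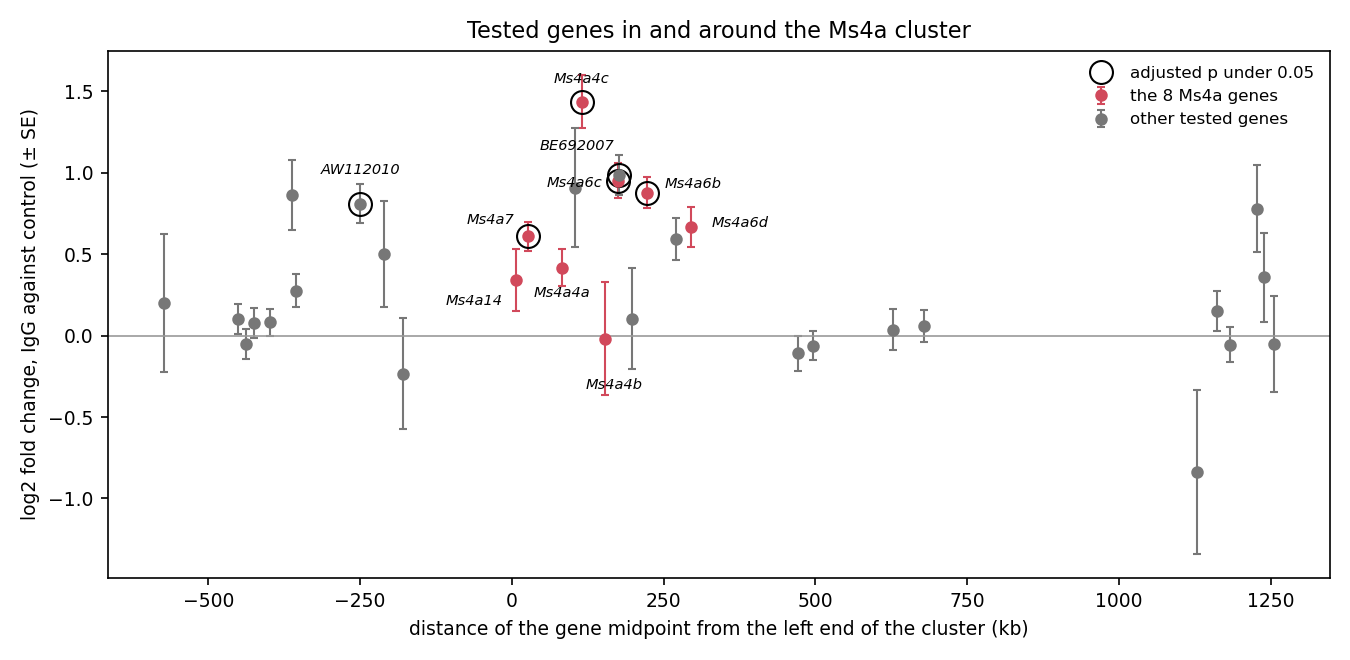
Log2 fold change (± SE, IgG against control) of the tested genes in and around the Ms4a cluster against the distance of the gene midpoint from the left end of the cluster in kb. The 8 Ms4a genes are in red and circles mark adjusted p under 0.05. Between 0 and 304 kb 11 of 12 genes lie above 0, and the nearest genes on either side, Gm6501 and Mrpl16, lie at -0.23 and -0.11.

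Genes known to act with MS4A proteins were taken as a list of 10, which held the receptors Clec7a (Dectin-1), Trem2, Vsig4 and Tnfrsf18 (GITR), the signalling genes Tyrobp, Syk and Fcer1g, the inflammasome gene Nlrp3 and the sheddases Adam10 and Adam17. Of these, 9 were tested and 0 passed adjustment in edgeR with the block, whereas 0.393% of all tested genes rose past it. In that fit 2 had an unadjusted p-value under 0.05, against 10.2% of all tested genes in either direction. DESeq2 and limma-voom with the block called 1 and 0, where 1.21% and 0.496% of all tested genes rose past adjustment. Their median log2 fold change was 0.06. Clec7a, the partner of MS4A4A, had 459 CPM in the controls and 617 CPM with IgG (log2 fold change 0.35, edgeR adjusted p = 0.486), and its differences of 0.64 and 0.73 in pairs 1 and 3 stood against 0.0074 and 0.0045 in pairs 2 and 4. Fcer1g, the signalling chain shared by IgG and IgE receptors, had 582 CPM in the controls and 779 CPM with IgG, with every IgG library above every control library and differences of 0.54, 0.17, 0.48 and 0.49. Its log2 fold change of 0.42 had an unadjusted p-value of 0.00301 and an adjusted p-value of 0.209 in edgeR. Trem2, a lipid-sensing receptor of microglia, and Tyrobp, its signalling adaptor, had log2 fold changes of -0.14 and -0.20 (edgeR adjusted p = 0.719 and 0.672), and the pairs went in both directions, with -0.35, -0.10, -0.42 and 0.33 for Trem2 and -0.52, -0.05, -0.64 and 0.40 for Tyrobp. Vsig4, the receptor reported with Ms4a6d, was too low to test, and Tnfrsf18, the partner of Ms4a4b, had a mean of 0.873 CPM in the controls and 0.952 CPM with IgG. The structurally related genes Tmem176a and Tmem176b had log2 fold changes of 0.33 and 0.36. Both had every IgG library above every control library, against 2.6% of all tested genes, but their adjusted p-values in edgeR were 0.307 and 0.221. With the length and GC trends removed, these were 0.0777 and 0.0316.

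Across the 8 libraries the levels of the Ms4a genes other than Ms4a4b, whose mean was under 1 CPM, followed one another to different degrees. The Pearson correlation of log2 CPM ranged from 0.65 (Ms4a7 and Ms4a14) to 0.99 (Ms4a4c and Ms4a6c). These correlations include the treatment and the differences between cultures and rest on 8 libraries that share both, and they are given as a description. Among 15668 genes, those most like Ms4a4c were the IgG receptor gene Fcgr1, Lgals3bp and Evi2a, and those most like Ms4a6b were Dhx58, Igtp and Oasl2, which are known interferon-stimulated genes, with r of at least 0.99 over the 8 libraries. Ms4a6c was nearest to BE692007, Il4ra and Lgals9, and Ms4a6d to Phf11b, Ptger4 and Gatm, again with r of at least 0.99. Ms4a4a was nearest to Gm27995 (0.99), Marcks (0.98) and Nmi (0.98), Ms4a7 to Ppp6r1 (0.99), Gm20547 (0.98) and Gm16712 (0.97), and Ms4a14 to Rbm7, Tent5a and Cntln (0.99). For a list of 18 interferon-stimulated genes the median log2 fold change was 0.72, with 9 of 18 past adjustment and 18 of 18 higher in all 4 pairs, against 0.393% and 10.4% of all tested genes. With the block 16 of the 18 met the criterion, against 1.48% of all tested genes, and DESeq2 called 17, against 1.21%. When edgeR was run with no block, 0 of them passed adjustment, as was so for all tested genes, and 0 met the criterion, against 0.582%. Unadjusted p-values under 0.05 were found in that fit for 8, against 4.83% of all tested genes in that direction. With Irf7, a transcription factor of that list, the correlation was 0.98 for Ms4a4c, Ms4a6b and Ms4a6c, 0.96 for Ms4a6d, 0.90 for Ms4a7, 0.86 for Ms4a4a and 0.82 for Ms4a14.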

How the data were processed

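RNA of 4 control and 4 IgG-treated cultures was sequenced after enrichment of poly(A) RNA. The authors deposited 1 table of raw read counts for each Ensembl gene, from quality-filtered reads that they aligned to mm10 with HISAT2. The submitters' processing notes also list SAMtools 1.12, Picard 2.26.3, featureCounts and edgeR 3.36.0. Annotation, strand and the handling of multiple alignments are not given in the sources used here. The members and lists were chosen with earlier results of these data known.

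Symbols, positions and exon lengths came from GENCODE M21 (55144 of 55385 identifiers), start windows from RefSeq. Counts were filtered with filterByExpr, scaled with TMM and tested with edgeR 4.0.16 (R 4.3.3, quasi-likelihood, Benjamini-Hochberg over 17537 genes). The pair was a block, because the labels give paired libraries 1 date: deviations from group means correlated at 0.41, 0.33, 0.26 and 0.32 for same-numbered libraries and at most 0.20 otherwise (15669 genes). Log2 CPM used a prior count of 2. Alternatives were the test without the block, DESeq2 1.42.0, limma-voom 3.58.1, the likelihood ratio test, other scalings and filters, removal of length and GC trends (lowess, span 0.3), and omission of each library or pair. The omission of pairs 1 and 3 together, the sum of Ms4a6c and BE692007, and the motifs GAGGAA and TGANTCA were chosen after the data were seen. The paired edgeR test was tried on simulated counts with known changes and a culture effect shared within each pair. That simulation held no trends on length or GC content and no differences in mitochondrial share. All members were named, and other genes by rule: lists by count, genes past adjustment near the cluster, the nearest tested neighbours and the 3 most correlated genes of each member. P-values of fits with the block measure how far the difference between IgG and control varies between the 4 pairs. Those of fits without it measure the spread between these cultures. Counting limits cover counting error only. The level of 1 microglial marker, and the sum of the list that holds it, are not reported here.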

Additional observations from a re-analysis of the deposited data

How the results depend on the processing

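Without the replicate block, 0 of the 8 Ms4a genes passed adjustment in edgeR, 2 met the criterion, and 0 of the 24 neighbouring genes passed. In the paired fit, the number past adjustment was 3 with scaling by total counts or by the upper quartile, where Ms4a7 was lost and 0.211% and 0.314% of all tested genes rose past adjustment. It was 4 or 5 under the other scalings, filters and tools with the block, where this share ran from 0.371% (RLE scaling) to 1.6% (likelihood ratio test). The omission of single libraries or pairs gave 0 to 5 genes past adjustment and 0 to 5 genes meeting the criterion. The 5 past adjustment were found without pair 4, where 0.974% of all tested genes rose past it. The criterion count was 0 without control library 4 and no block, against 0.31% of all tested genes. It was 5 without IgG library 4 and no block (2.56%) and 5 without pair 4 (2.43%). Scaling by total counts alone moved the median of all genes to -0.11 and that of the 8 genes to 0.54.

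Ms4a4c, Ms4a6b, Ms4a6c, Ms4a6d, Ms4a7 and Ms4a4a stayed above 0 in all alternatives run, with log2 fold changes of 1.11 to 1.80, 0.67 to 1.16, 0.76 to 1.20, 0.41 to 0.93, 0.49 to 0.68 and 0.18 to 0.65. Ms4a14 turned to -0.080 without pairs 1 and 3. Ms4a4b ranged from -0.25 to 0.15, and was above 0 without IgG library 2 (0.029), IgG library 4 (0.089), control 1 (0.098), control 3 (0.021) or pair 4 (0.15); the cause was not tested. DESeq2 gives no adjusted p-value for Ms4a4b. Removing the length and GC trends gave 5 genes past adjustment in edgeR, against 1.06% of all tested genes. Their adjusted p-values were 0.00392 (Ms4a4c), 0.00200 (Ms4a6b), 0.00302 (Ms4a6c), 0.0395 (Ms4a6d) and 0.0188 (Ms4a7). Their log2 fold changes were smaller after this step, at 1.36, 0.77, 0.91, 0.64 and 0.53 in that order. Before it they were 1.44, 0.88, 0.95, 0.67 and 0.61. Over 15639 genes the within-pair changes had Spearman correlations with GC content of -0.42, -0.03, -0.42 and 0.34 in pairs 1 to 4. With gene length these were 0.22, -0.03, 0.23 and -0.41. Depth limits the statement on Ms4a4b, with at most 16 counts in a library.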
